A study of Homo sapiens with 7 samples.

Results

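The guides described here are the 72 Brunello guide RNAs, 4 for each of 18 genes, that target the RNA exosome, its nucleases and the factors that bring nuclear RNA to it. The screen held 77441 guides, which targeted 19112 genes and included 1000 non-targeting guides. The 72 guides were taken by gene name: EXOSC1 to EXOSC10, DIS3, C1D, MPHOSPH6, SKIV2L2 (the helicase MTR4, now MTREX), ZCCHC8, RBM7, ZFC3H1 and PABPN1. The cell libraries came from HCT116, a human colorectal carcinoma line, in clonal form with a GFP reporter at AAVS1 that contains the detained intron 4 of OGT. Cells received the knockout library by virus (multiplicity of infection 0.3), were held in puromycin for 8 days from day 2, and were given 1 μM TG (thiamet G, an inhibitor of O-GlcNAcase that lowers reporter GFP) for 24 h on day 9, replenished every 12 h. Cells with high GFP at the end of day 10 (sorted, 3 libraries) were compared with unsorted cells (input, 3 libraries), so that both groups carried the reporter, the guide library and the TG treatment. A further library measured the guide pool, for which the label names HCT116 as the source and the study's methods describe the DNA from which the virus was made, so whether it passed through cells is unsettled. Replicate numbers are missing from the deposited values, and libraries are numbered here by their order in each value, and which of them were the pilot screen (100-fold guide coverage, against 300-fold in the later screens) is not known.

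The RNA exosome degrades and trims RNA from its 3′ end in the nucleus and the cytoplasm. Its core is a barrel made of a ring of EXOSC4 to EXOSC9, which resemble bacterial RNA-degrading enzymes but have lost their activity in human cells, and a cap of the RNA-binding subunits EXOSC1, EXOSC2 and EXOSC3. Catalysis comes from DIS3 and, mainly in the nucleus, EXOSC10, with C1D and MPHOSPH6 as nuclear cofactors. MTR4 unwinds RNA and feeds it into the barrel. It works in NEXT, with the scaffold ZCCHC8 and the RNA-binding protein RBM7, on short unprocessed transcripts, and in PAXT, with the scaffold ZFC3H1 and the nuclear poly(A)-binding protein PABPN1, on polyadenylated RNA that stays in the nucleus. The question put to each gene was whether its loss changed how often cells were found in the high GFP gate.

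Guide sequences are shown for 5 genes on which the comparisons turned, each followed by the adjacent NGG motif (PAM) of the genome in capitals. Positions are those of a match to GRCh38, exons those of the canonical transcript in GENCODE 44, and guides are numbered from the start of the coding sequence. ZFC3H1 is shown because it was the member called in sorted cells.
ZFC3H1 guide 1, exon 1, chr12:71663178-71663197, plus strand: ggaaacggtccaaggcgaggTGG
ZFC3H1 guide 2, exon 2, chr12:71656988-71657007, minus strand: catttgaattaaaaccactcAGG
ZFC3H1 guide 3, exon 6, chr12:71642498-71642517, plus strand: atgcctcctccactatcagtAGG
ZFC3H1 guide 4, exon 17, chr12:71630932-71630951, minus strand: tagtccatattatcgaaccaAGG
EXOSC9, a ring subunit, had the largest log2 fold change in sorted cells and was among the lowest members in input cells.
EXOSC9 guide 1, exon 2, chr4:121801883-121801902, plus strand: agattacggatgctgcattgTGG
EXOSC9 guide 2, exon 3, chr4:121802711-121802730, plus strand: aaactcaatcgggcaacagaAGG
EXOSC9 guide 3, exon 6, chr4:121807581-121807600, minus strand: tgacacaaatgggcatgtggTGG
EXOSC9 guide 4, exon 7, chr4:121809991-121810010, plus strand: tgaacgagaagaacgtgtgaTGG
DIS3, the main nuclease of the core, had the next largest log2 fold change.
DIS3 guide 1, exon 2, chr13:72780902-72780921, plus strand: tcggatgcgtttatatacggGGG
DIS3 guide 2, exon 10, chr13:72772220-72772239, minus strand: atttgtagtgtagacccaccAGG
DIS3 guide 3, exon 12, chr13:72771088-72771107, minus strand: gtgttccttaaaatgtgacgTGG
DIS3 guide 4, exon 14, chr13:72768836-72768855, minus strand: gatattaccactagtctccgTGG
EXOSC10, the nuclear exonuclease, had the lowest log2 fold change.
EXOSC10 guide 1, exon 4, chr1:11091490-11091509, minus strand: ccagctggaaccgtaaggtgAGG
EXOSC10 guide 2, exon 6, chr1:11090591-11090610, plus strand: tgaaatcagccagtgcagggGGG
EXOSC10 guide 3, exon 9, chr1:11087436-11087455, plus strand: aggctggctgaccttaacgaTGG
EXOSC10 guide 4, exon 14, chr1:11079796-11079815, plus strand: cagcaagctatgatgccctgAGG
SKIV2L2 belongs to both NEXT and PAXT and was the member lowest in input cells.
SKIV2L2 guide 1, exon 3, chr5:55324177-55324196, plus strand: tgttgaagggtgtacacatgAGG
SKIV2L2 guide 2, exon 6, chr5:55340163-55340182, plus strand: ttgtcttgttatgaccacagAGG
SKIV2L2 guide 3, exon 9, chr5:55344525-55344544, minus strand: tctgtgtaaataacatgacaAGG
SKIV2L2 guide 4, exon 16, chr5:55366751-55366770, plus strand: tttccatttgacctacaacaTGG

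All 72 guides cut in coding sequence, between 6.5 and 65.1% of its length. Of them, 70 had 1 perfect site in the genome. The exceptions were C1D guides 1 and 4, each of which also matched the processed pseudogene C1DP1 within CCDC7 on chromosome 10. All guides of EXOSC3, EXOSC4, EXOSC5, RBM7 and PABPN1 also lay within another protein-coding gene of the annotation, which for PABPN1 is the read-through gene BCL2L2-PABPN1. The 4 PABPN1 guides lay in exon 1, and the single exon of EXOSC6 held its 4 guides. The guide pool held 88 to 1324 reads for these guides, with a median of 339. In input cells their mean normalised count (reads times 1 factor per library) ranged from 13.0 to 906, with a median of 208 against 264 for all guides. Cell libraries held 26155295 to 31047546 reads and the guide pool 35774845 reads. No library of input cells lacked any of these guides, whereas 9, 8 and 4 of the 72 had no read in sorted libraries 1, 2 and 3, against backgrounds of 7.80, 10.8 and 7.26% of all guides. At least 2 sorted libraries lacked 5 of the 72 (6.94%, against 4.62%).

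Guides against MTR4 and against part of the exosome barrel were lower in input cells relative to the guide pool. Of the 18 genes, 5 were at least 2-fold lower (27.8%, against a background of 1.61% of 19112 genes), and 4 of these in each of the 3 input libraries (22.2% against 0.926%). Scaled to non-targeting guides, 5 members and 830 of all genes were as low, in place of 308. SKIV2L2 was the lowest, with log2 ratios of -2.02, -1.27 and -1.13 in input libraries 1, 2 and 3 and a mean of -1.47 (0.361-fold). EXOSC9 followed at -1.38 (-1.11, -1.30 and -1.72), then EXOSC2 at -1.32 (-1.24, -1.13 and -1.57), EXOSC8 at -1.26 (-1.09, -1.46 and -1.22) and EXOSC6 at -1.01 (-1.15 and -0.89 in input libraries 2 and 3, with library 1 at -0.9995). The libraries of these 5 genes overlapped with each other, and EXOSC6 alone had libraries above -1. Guides 1, 3 and 4 of EXOSC6 stood at -1.60, -1.80 and -1.53, while its guide 2 stood at 0.88. EXOSC2, EXOSC8 and EXOSC9 also had 3 of 4 guides at least 2-fold lower, but SKIV2L2 had 2 of 4. Guides 1 to 4 of SKIV2L2 stood at -0.74, -1.47, -2.83 and -0.84, so its gene value leaned most on guide 3. That guide had 126 reads in the pool and 6, 15 and 24 in the input libraries. With a single library of the pool no test is possible. These ratios are relative to the median guide.

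The median log2 ratio was -0.68 for the 6 ring genes, -0.58 for PAXT, -0.42 for the nucleases, -0.26 for the cap, -0.11 for the cofactors and -0.09 for NEXT. The genes of ring, cap and NEXT overlapped widely, and differences between complexes were not tested. Single genes were spread, with EXOSC10 (-0.66), ZFC3H1 (-0.58) and EXOSC4 (-0.35) among the genes between the 5 lowest and the median of all genes at -0.04. PABPN1 (-0.33), EXOSC5 (-0.32), EXOSC3 (-0.26), DIS3 (-0.17) and MPHOSPH6 (-0.16) lay there too. ZCCHC8 (-0.09), C1D (-0.06) and EXOSC7 (-0.04) were close to that median. EXOSC1 (0.19) and RBM7 (0.29) stood above it in each input library. In NEXT only MTR4 was past 2-fold, as in PAXT, where ZFC3H1 had values of -0.31, -0.59 and -0.85. Within DIS3 the guides ran from -1.90 for guide 1 to 1.21 for guide 2, so its gene value averaged unlike guides. Of the 72 guides, 17 were at least 2-fold lower (23.6%, against 7.74% of targeting guides).

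In sorted cells, ZFC3H1 was the only 1 of the 18 genes called higher than in input (5.56%, against a background of 0.314% of 19112 genes), and none was called lower (background 0.00523%). Calls are at an adjusted p below 0.05 by robust rank aggregation (RRA), which asks whether a gene's guides crowd at the top of the ranking of all guides and which takes its null over guides. At an unadjusted RRA p below 0.05, 7 genes were higher (38.9% against 5.47%) and 0 lower (against 5.53%). On summed reads, edgeR called 0 of all 19112 genes lower, so its 0 members lower say nothing about them. DESeq2 called 183 of the 19112 genes lower and 0 members. The 7 were ZFC3H1, EXOSC9, ZCCHC8, DIS3, EXOSC6, EXOSC5 and EXOSC8. With limma on the mean over each gene's guides, whose error comes from the spread between libraries, no member passed in either direction (backgrounds 0.0157% higher and 0% lower), and 2 genes were higher and 2 lower at an unadjusted p below 0.05 (11.1% each, against 1.96 and 13.9%). The labels call the libraries biological replicates, which the study defines as cells passaged at separate times. The limma p-values measure only the spread between these libraries, with each error drawn towards a trend over all genes or guides. RRA p-values for genes rest on how far a gene's guides agree and are no measure of that spread. Gene log2 fold changes are means over 4 guides of log2 of the normalised count plus 1, sorted minus input. On this scale sorted values at or near 0 weigh heavily and can enlarge a drop. The median of all genes was -0.56 (-0.30 with 10 added in place of 1), and 9 of the 18 members lay above -0.56. Of single guides, 1 of 72 passed limma as higher (1.39%, against 0.0917%) and 0 as lower (against 0.591%), with 9 and 1 at an unadjusted p below 0.05 (12.5%, against 4.42%, and 1.39%, against 2.94%). Of all 72, 12 of 72 had every sorted value above every input value (16.7%, against 9.04%) and 3 had every sorted value below (4.17%, against 7.47%).

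By complex, the sorted libraries differed among themselves. Medians are given relative to all genes. PAXT stood 1.01 above, with 0.96, -0.30 and 0.59 in sorted libraries 1, 2 and 3. Its 1.01 was the value of PABPN1, the middle of its 3 genes, between ZFC3H1 at 1.26 and SKIV2L2 at -0.66. The ring stood 0.85 above (0.07, 0.74 and 0.84), the only complex above all genes in each sorted library. It stood at 1.21 without sorted library 1, and at 0.48 and 0.48 without sorted libraries 2 and 3. The cap was at -0.04, but -2.00 in sorted library 1 and 1.15 in sorted library 3. The nucleases were at -0.03, NEXT at -0.22 and the cofactors at -0.73. On reads summed over guides (edgeR) the signs of cap, nucleases and NEXT turned, to 0.65, 0.50 and 0.46, beside 0.59 for the ring, 1.28 for PAXT, -0.29 for the cofactors and 0.59 for all members. The 18 members together stood at 0.08, against -0.28, 0.39 and 0.83 in the libraries, and at 0.92 without sorted library 1. Among single genes, EXOSC5, EXOSC6, EXOSC9, DIS3, ZCCHC8 and ZFC3H1 were above the median of all genes in each sorted library (33.3%, against 17.1% of all genes).

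ZFC3H1, the PAXT scaffold, stood at 0.70 ± 0.38 (log2 fold change ± SE, n = 3 libraries in each group), with 1.42, 0.38 and 0.29 in sorted libraries 1, 2 and 3, and adjusted p-values of 0.0298 by RRA and 0.398 by limma. Guide 4, in exon 17 of 35, had normalised counts of 420.3, 442 and 397 in the 3 input libraries and 1682, 3209 and 2532 in the 3 sorted libraries. Its log2 fold change was 2.51 ± 0.31, and it was the only 1 of the 72 guides to pass limma over all guides (adjusted p = 0.0376). No member guide was called higher with a pseudocount of 10, with the filter on input, with edgeR, or without any 1 of the input libraries or sorted library 2. With edgeR, without input library 2 and without sorted library 2, 0 of all guides were called higher, so these settings say nothing about guide 4. Of all guides, 7 were higher with the pseudocount, 3 with the filter, and 30 and 25 without input libraries 1 and 3. Guide 1, in exon 1, went from 212, 206 and 186 to 657, 612 and 1551, with no overlap between the groups (2.08 ± 0.41, adjusted p = 0.0943 by limma). Guide 3, in exon 6, had 425, 306 and 339 in input and 1269, 358 and 1102 in sorted cells, where sorted library 2 lay within the input range. Sorted values were thus far above input for guides 1 and 4, and partly so for guide 3. Guide 2, in exon 2, lay on the other side, with 206, 128 and 65.9 in input and 133, 13.7 and 0.900 in sorted cells, where sorted library 1 overlapped with input. It lowered the gene's mean, and the median over the 4 guides was 1.63, against -0.11 for all genes on that summary. The RRA call was lost without sorted library 1 (0.34, adjusted p = 0.325) and without sorted library 3 (0.90, adjusted p = 0.0956). With edgeR on reads summed over the guides, the gene stood at 1.81 (adjusted p = 0.0111).

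PABPN1, the poly(A)-binding subunit of PAXT, stood at 0.45 ± 0.75 and was below input in sorted library 2 (0.74, -1.20 and 1.82). Its guide 4 had 419, 452 and 445 in input and 643, 1798 and 1154 in sorted cells, so that the groups did not overlap (1.33 ± 0.38, adjusted p = 0.364 by limma). Guide 3 was high in sorted library 3 alone (142, 76.6 and 1496, against 114, 98.9 and 109 in input), and guide 1 was nearly absent from sorted library 2 (1.14). Without sorted library 3 the gene's log2 fold change was -0.23. DESeq2 on summed reads called it (1.30, adjusted p = 0.00341), but edgeR on the same reads did not (1.31, adjusted p = 0.324).

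MTR4, the helicase shared by NEXT and PAXT, had no call in either direction. The log2 fold change of SKIV2L2 was -1.22 ± 0.81, with -2.81, -0.95 and 0.09 in the sorted libraries, and no test passed (adjusted p = 0.456 by limma). Its guides were scarce in input, with mean input values of 13.0 to 96.5 for its 4 guides. Guide 4 was lower in every sorted library, at 0.905, 2.29 and 0.900 against 83.9, 63.0 and 83.3 in input (-5.08 ± 1.19, adjusted p = 0.194 by limma over all guides). Guide 3, the scarcest, went from 4.94, 13.1 and 20.8 to 0, 295 and 17.1. Guide 1 had 69.1, 98.0 and 122 in input and 116, 0 and 382 in sorted cells. The groups overlapped for both. For guide 2 the values were 23.9, 77.0 and 43.4 and 6.33, 293 and 388, with sorted library 1 below input and the other two above it. The sorted values of guides 1 to 3 thus ran from at or near 0 to several times input. With edgeR on summed reads the gene stood at 0.92 (adjusted p = 0.783), so that its direction rested on the summary used.

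In NEXT, the scaffold ZCCHC8 had the most even guides of the 18 genes, with log2 fold changes of 0.40 to 0.67 and a gene value of 0.52 ± 0.30 (-0.14, 0.85 and 0.86). It ranked 241 among 19112 genes by RRA (adjusted p = 0.540). Its guides were well represented, at 304 to 434 in input, and only sorted library 1 was below input. RBM7, the RNA-binding subunit, stood at -0.78 ± 0.63, with 0.17, -2.08 and -0.43 in the sorted libraries. Its 4 guides ranged from -2.39 to 0.23, and guide 2 was at 1.14 in sorted library 2 and at 602 in sorted library 3. Relative to all genes the mean over guides of RBM7 was -0.22. On summed reads RBM7 stood at 0.03 with edgeR, where the median of all genes was also 0.03.

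The ring held 4 of the 7 genes with an unadjusted RRA p below 0.05. EXOSC9 had the largest log2 fold change of the members, 1.12 ± 0.46 (0.99, 0.59 and 1.77), with adjusted p-values of 0.466 by RRA and 0.302 by limma, and did not pass. Its guide 3 had 255, 248 and 186 in input and 495, 501 and 387 in sorted cells, with no overlap. Guide 1 went from 190.0, 214 and 298 to 194, 1343 and 742, and guide 4 from 123, 55.1 and 47.7 to 113, 396 and 384. In both, sorted library 1 lay within the input range and the other two above it. Guide 2, at 99.5, 118 and 39.0 in input, had 409, 4.57 and 353 in sorted cells, where sorted library 2 was the exception. These guides were thus scarce in input relative to the pool and had higher means in sorted than in input cells. Both comparisons share the input counts, so they are not independent. On summed reads EXOSC9 stood at 1.33, with an adjusted p of 0.142 by edgeR and 2.83e-05 by DESeq2.

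EXOSC5 had 4 guides above input (0.20 to 1.67) and a gene value of 0.93 ± 0.49 (0.42, 1.84 and 0.52, limma adjusted p = 0.389). EXOSC6 stood at 0.56 ± 0.45 (0.54, -0.41 and 1.56, limma adjusted p = 0.518). Its guide 4 had 273, 258 and 353 in input and 1134, 511 and 972 in sorted cells, without overlap, whereas guide 2, the guide that was not scarce in input, had 896, 85.7 and 527 in sorted cells against 888, 739.7 and 799. EXOSC8, whose 0.02 ± 0.62 changed sign with the libraries used, combined 3 guides above input with guide 1 at -2.77 ± 2.11. Relative to all genes it stood at 0.58. Guide 3 of EXOSC8 went from 484, 244 and 221 to 682, 602 and 742, again without overlap. EXOSC4 (-0.79 ± 0.43, or -0.23 relative to all genes) and EXOSC7 (-0.81 ± 0.59, or -0.25 relative to all genes) had negative values. For EXOSC7 these came from guide 4, which had no read in sorted libraries 1 and 2, while the other three lay between -0.23 and 1.05. The log2 fold change of EXOSC8 was below 0 in sorted library 1 and that of EXOSC6 in sorted library 2 (-1.26, 0.78 and 0.54 for EXOSC8).

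In the cap, EXOSC3 stood at -1.65 ± 0.60 and was below input in 3 of 3 sorted libraries (-0.89, -2.42 and -1.64), but the adjusted p was 0.265 by limma and 0.986 by RRA. Its 4 guides ranged from -4.42 to 1.24, with no read in 3 of 12 sorted values. On summed reads EXOSC3 stood at 0.67 (edgeR adjusted p = 0.508), opposite in sign to its mean over guides. EXOSC1 stood at -0.37 ± 0.79 (-2.22, 0.26 and 0.85) and EXOSC2 at -0.60 ± 1.16 (-3.33, -0.10 and 1.62). These were both far below input in sorted library 1 and above it in sorted library 3. Both had a positive value with edgeR on summed reads (0.22 and 0.90), where the median of all genes was 0.03. Relative to all genes, the mean over guides was 0.19 for EXOSC1 and -0.04 for EXOSC2. Their values without sorted library 1 were 0.56 and 0.76.

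The nucleases lay at opposite ends of the members. DIS3 stood at 1.05 ± 0.39 and was above input in 3 of 3 sorted libraries (0.50, 1.19 and 1.48), with adjusted p-values of 0.626 by RRA and 0.268 by limma. Guide 3, in exon 12 of 21, had 163, 186 and 229 in input and 708, 564 and 308 in sorted cells, with all sorted values above input. Guide 1, in exon 2, went from 42.8, 63.9 and 39.0 to 75.1, 175 and 405, again without overlap. Guide 2 had 248, 423 and 456 in input and 235, 624 and 717 in sorted cells. Guide 4 had 241, 171 and 243 and 225, 317 and 491. For both of these sorted library 1 lay at input level or below and the other two above all input values. EXOSC10 stood at -2.22 ± 0.79 (-3.08, -0.64 and -2.95), the lowest of the members, but did not pass (limma adjusted p = 0.255). Its guides had no read in 5 of 12 sorted values, the most of any member. Guide 1 had 171, 97.2 and 123 in input and 162, 0 and 0 in sorted cells. Guide 3 had 93.8, 43.8 and 36.4 in input and 0, 594 and 0 in sorted cells. Each of the 2 was seen in 1 sorted library only. Guide 4 went from 176, 162 and 121 to 0, 173 and 118, absent from sorted library 1. Guide 2, the most abundant, went the other way without overlap, from 319, 269 and 244 to 348, 476 and 684. On summed reads EXOSC10 stood at 0.27 (edgeR adjusted p = 0.902) and DIS3 at 0.78 (edgeR adjusted p = 0.430), so the negative sign of EXOSC10 held on the mean of log values and not on the sum.

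Of the nuclear cofactors, C1D stood at -1.61 ± 0.78 (-0.28, -1.45 and -3.10) and MPHOSPH6 at -0.97 ± 0.68 (-1.57, 0.48 and -1.83), with limma adjusted p-values of 0.358 and 0.474. Guide 3 of C1D had 120.1, 172 and 153 in input and 101.3, 0 and 1.80 in sorted cells, the groups not overlapping. C1D guides 1 and 4, which also match the pseudogene, overlapped between the groups. Guide 1 had 169, 198 and 203 in input and 77.8, 257 and 0 in sorted cells, and guide 4 went from 255.8, 123 and 257 to 289, 170.3 and 241. MPHOSPH6 guide 1 had no read in sorted library 3 and guide 4 had 1.81 in sorted library 1, while their other sorted values were 287 and 362 for guide 1 and 328 and 270.0 for guide 4.

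Loss of guides in sorted cells went with their level in input. Of the 18 member guides with a mean input below 100, 10 had no read in at least 1 sorted library (55.6%), against 70.9% of all guides at that level. Of the 15 at 100 to 200 it was 5 (33.3%, against 38.4%), of the 27 at 200 to 400 it was 1 (3.70%, against 11.9%) and of the 12 above 400 it was 0 (against 0.959%). In total 16 of 72 guides had such a value (22.2%, against 20.2% of all guides). With a pseudocount of 10 the median of the members stood 0.33 above all genes and EXOSC10 at -0.93. When guides under 100 were dropped, 17 of the 18 genes had a value (SKIV2L2 had none), and the median of the members stood 0.77 above all genes in place of 0.08.

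Among 19 other genes of nuclear and cytoplasmic RNA decay, 1 was called higher in sorted cells and 0 lower (against 0.314 and 0.00523% of all genes), with 4 at an unadjusted RRA p below 0.05 for higher and 0 for lower (against 5.47 and 5.53%). The called gene was NCBP1, the large subunit of the nuclear cap-binding complex, which links capped RNA to NEXT and PAXT through SRRT and ZC3H18. It stood at 0.81 ± 0.57 (-0.62, 1.40 and 1.64), with an adjusted p of 0.00254 by RRA and 0.479 by limma. The median of these genes lay 0.21 above all genes, with 0.40 for 11 partners of nuclear decay, 0.17 for 3 TRAMP genes and -0.33 for 5 genes of the SKI complex and the cytoplasmic exosome. Relative to the guide pool, only SRRT was at least 2-fold lower in input (-1.61, with -1.56, -1.50 and -1.79), which is 1 of 19 against 1.61% of all genes.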

How the data were processed

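Guide counts came from 3 input, 3 sorted and 1 guide pool library, the first 6 from HCT116 reporter cells. Per the labels, the authors used FastQC 0.11.9, cutadapt 3.3 and MAGeCK. The authors deposited, for each guide, normalised counts of the input and sorted libraries joined in 1 cell, and raw counts of the guide pool. At least 99.9974% of normalised counts in each library were whole multiples of 1 step, within 0.1 read, which gave back the reads. The columns of the authors' own comparisons (fold changes and p-values) were not used.

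Guides were tested with limma (3.58.1, R 4.3.3) on log2(normalised count + 1), and genes by robust rank aggregation (alpha 0.25) of the guide ranks, with Benjamini-Hochberg adjustment over all 77388 guides or 19112 genes. Calls were made at an adjusted p below 0.05. Input over pool ratios were scaled to the median guide. Alternatives were a pseudocount of 10, other scalings and filters, limma on gene means, leaving out each library, and edgeR (4.0.16) and DESeq2 (1.42.0) on recovered reads. Scripts were tested on simulated data. The members and gene lists were chosen with earlier results of these data known. Genes described by guide were the called genes, those with the highest and lowest 2 log2 fold changes, the 2 lowest in input over the guide pool, and SKIV2L2, except EXOSC3, which is given by range. Other members follow their ranges, and single guides of theirs were picked after their values were seen. Some guide sequences and the values of those guides are not reported here.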

Additional observations from a re-analysis of the deposited data

How the results depend on the processing

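No paired analysis was possible because the deposited values carry no replicate numbers. The call of ZFC3H1 held under the other scalings, pseudocount, input filter, alpha and edgeR. Higher genes (1) became 0 with limma on gene means and 4 with DESeq2 (EXOSC9, DIS3, PABPN1 and ZFC3H1), and ranged from 0 to 1 when single libraries were left out. Higher guides (1) became 0 with a pseudocount of 10, 0 with a mean input of at least 100, 0 with edgeR and 4 with DESeq2 (0 to 4 without single libraries). Lower guides (0) became 1 with DESeq2 (0 to 3 without single libraries). Without sorted library 1, 4 member guides were higher and 3 lower, against 491 and 2055 of all 77387 guides. Without sorted library 3 the members had 2 and 3, against 265 and 1682 of all 77388 guides. Over all genes, 60 were higher, against 3 with limma, 486 with DESeq2 and 19 and 20 without sorted libraries 2 and 3. Over all guides, 71 were higher and 457 lower, against 7 and 0 with a pseudocount of 10, 3 and 0 with the input filter, 0 and 0 with edgeR, and 1127 and 1211 with DESeq2.

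The median of the members relative to all genes (0.08) moved to 0.77 with the input filter, where NEXT stood at 0.33, and ranged from -0.14 to 0.92 without single libraries (NEXT -0.39 to 0.29, PAXT 0.33 to 1.28, the ring 0.48 to 1.21 and the cap -1.09 to 1.15). Scaled to non-targeting guides, the members' median of input over pool was -0.62. Signs turned on summed reads, with edgeR and then DESeq2, for EXOSC2 (0.90 and 0.89), EXOSC3 (0.67 and 0.67), EXOSC10 (0.27 and 0.27) and SKIV2L2 (0.92 and 0.91). They also turned for EXOSC1 (0.22 and 0.22) and RBM7 (0.031 and 0.027), but the median of all genes rose too. It was 0.027 with edgeR and 0.024 with DESeq2, against -0.56 on the mean over guides. Relative to all genes, EXOSC1 stood at 0.19 and RBM7 at -0.22 on the mean over guides. EXOSC2 was 0.14 with a pseudocount of 10 and 0.83 with the input filter. EXOSC7 was 0.29 with that filter and 0.37 as the median over guides. With equal totals EXOSC8 was -0.20, but the median of all genes moved too, from -0.56 to -0.77. Without single libraries, EXOSC1 ranged from -0.98 to 0.56, EXOSC2 from -1.71 to 0.76, EXOSC8 from -0.36 to 0.66 and PABPN1 from -0.23 to 1.28. The cause of these changes was not tested. Genes without a guide under a mean input of 100, such as ZFC3H1 and ZCCHC8, had the same value with that filter.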
